A study of Mus musculus with 9 samples.

Results

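The comparison described here set 3 NIH 3T3 cultures carrying a short hairpin RNA (shRNA) against Ube2f beside 3 carrying a control shRNA, taken by the group in each array's title, which is 6 of the 9 arrays of the series. NIH 3T3 is an established line of mouse embryonic fibroblasts. In all 3 groups, control shRNA, Ube2f shRNA and Ube2m shRNA, the cells received a retroviral hairpin vector and RNA was isolated 5 days afterwards. The growth notes of all 9 samples, controls included, describe the cells as expressing Ube2f, without saying whether an added construct is meant. The labels name 1 vector per target and no hairpin sequence, so that the loss of Ube2f and any other effect of that vector cannot be told apart. Replicates are called biological in the labels with no further detail, and p-values therefore measure only the spread between these samples. Going by its title, the study asked how pairs of E2 and RING proteins assign NEDD8 to particular cullins, and the comparison asks which transcripts differed when Ube2f was targeted.

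NEDD8 is a ubiquitin-like protein that an E1 enzyme (Nae1 with Uba3) hands to either of a pair of E2 enzymes, Ube2m or Ube2f, and that is then joined to the cullin subunits that hold together many ubiquitin ligases. Ube2f works with the RING protein Rnf7, also called Rbx2, on cullin 5, while Ube2m works with Rbx1 on the other cullins. Cullin 5 ligases carry elongins B and C and choose their substrates through proteins with a SOCS box, among them the SOCS family, which are induced by cytokine receptors through STAT factors and dampen JAK-STAT signalling. None of these steps acts on transcripts directly, and the arrays measured transcripts.

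Every array had been scaled to a trimmed mean signal of 500, and signals below are the deposited linear MAS5 signals of 1 probe set per gene, in the order of replicates 1, 2 and 3. Fold changes are differences of log2(signal + 16), Ube2f shRNA minus control unless stated. This scale understates the change of genes with low signals. SE is the standard error from the limma fit over all 9 arrays, and p-values are adjusted by Benjamini-Hochberg over the 10613 genes tested. A gene is called if its adjusted p was under 0.05. Replicate 3 stood apart in all 3 groups: median signals over the whole array were 64 to 73.5 there and 53.3 to 58.5 on replicates 1 and 2. Control replicate 1 had a ratio of 3-prime to 5-prime beta-actin probe sets of 1.817, against 1.243 to 1.353 on the other 8 arrays. Fibroblast markers were abundant in both groups, with summed signals of 137093 to 169433 in control and 150226 to 171826 in Ube2f arrays over 12 genes. Markers of 6 other cell types gave no called gene, but only 1 to 4 of each were tested, too few for a conclusion. The summed signal of 12 macrophage markers was 1055.8 to 1099.1 in control and 885.3 to 979.7 in Ube2f arrays. That of 12 skeletal muscle markers was 791.6 to 1120 and 805.3 to 880.9. That of 10 epithelial markers, mostly Krt14, was 3291.6 to 5399.1 and 2740 to 4235.2. That of 8 adipocyte markers, mostly Lpl, was 3170.7 to 4248.1 and 3930.9 to 4827.9. The part of these markers in the results was not tested. In bulk RNA, fewer cells of a type and less RNA per cell cannot be told apart.

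Ube2f itself read 2367, 2492 and 2757 in the control arrays and 135, 118 and 144 in the Ube2f arrays. The targeted transcript was thus at 5.21% of the control mean, a log2 fold change of -4.11 (adjusted p = 7.45e-10, SE 0.118), and all 3 Ube2f arrays lay far below all controls. Of the 6 probe sets named Ube2f, 5 were lower, by log2 differences of -1.55 to -4.12, and the sixth, dim in both groups, differed by 0.20. With all probe sets averaged the value was -2.71. In the Ube2m arrays Ube2f read 3029, 3140.0 and 2700.4, so the hairpin against the other E2 had not lowered it. No probe set with 1 gene was named Ube2m, and Ube2m was not checked here.

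The rest of the NEDD8 machinery was near its control level. Among 22 tested genes for NEDD8, its enzymes, the DCUN1D co-E3 proteins and the COP9 signalosome that removes NEDD8, 2 fell and none rose, Ube2f being 1 of them. The other was Cops7a, a COP9 signalosome subunit, which read 2772, 2592 and 2904 in the control arrays and 1574, 1832 and 1724 in the Ube2f arrays, a log2 fold change of -0.68 (adjusted p = 0.00218, SE 0.101). For the Ube2m hairpin it was -0.66 (adjusted p = 0.00188), and its call was lost when a gene's probe sets were averaged (adjusted p = 0.0647). Nedd8 itself read 7437, 8077 and 7046 in the control arrays and 7595, 8393 and 6522 in the Ube2f arrays, with overlapping groups (-0.01, adjusted p = 0.981). Nae1, a subunit of the E1 enzyme, gave 0.32, adjusted p = 0.0823, and its partner Uba3 gave 0.21, adjusted p = 0.382. Rnf7, the RING partner of Ube2f, read 2544, 3093 and 2801 in the control arrays and 2613, 2214 and 2249 in the Ube2f arrays (-0.25, adjusted p = 0.31). Cul5, its cullin, read 339.5, 342 and 405 in the control arrays and 270.0, 283 and 348 in the Ube2f arrays (-0.26, adjusted p = 0.388), so that for both partners the groups overlapped. Of 7 cullins tested only Cul7 was called, at -0.55 (adjusted p = 0.0223, SE 0.124), and the call was lost without control replicate 1, control replicate 2, Ube2f replicate 1 or Ube2f replicate 3 (adjusted p up to 0.09).

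Across all genes, 551 of 10613 were called, 5.19%, of which 237 were higher (2.23%) and 314 lower (2.96%) in the Ube2f arrays. The 3 arrays of each group did not overlap for any of these 551, and did not overlap for 23.2% of all genes tested. Of the 551 called genes, 367 changed by 1.5-fold or more (3.46% of all genes tested) and 184 by less, while 83 changed by 2-fold or more. Single arrays weighed on the count: leaving out control replicate 1 gave 281 calls, Ube2f replicate 1 gave 195 and Ube2f replicate 2 gave 342. Without Ube2m replicate 2, which enters the fitted contrast only through the shared spread, 151 genes were higher. The choice of probe sets and the filter used all 9 arrays and were not redone when an array was left out. A stricter set of 179 genes, 1.69%, was called with all arrays and without any 1 of the 9, 56 higher (0.528%) and 123 lower (1.16%). Centring the arrays on their medians left 50 rises and 172 falls, so that 22.5% of calls were higher in place of 43.0%. The Ube2m hairpin gave 1031 calls against the same controls (9.71%), and 1672 genes differed between the targeting hairpins (15.8%). Because both comparisons share their controls, they are set side by side below, and for some genes the direct difference is given as the test. Where only the value for the Ube2m hairpin is given, no difference or likeness between the hairpins is read from it.

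**Figure D1:**
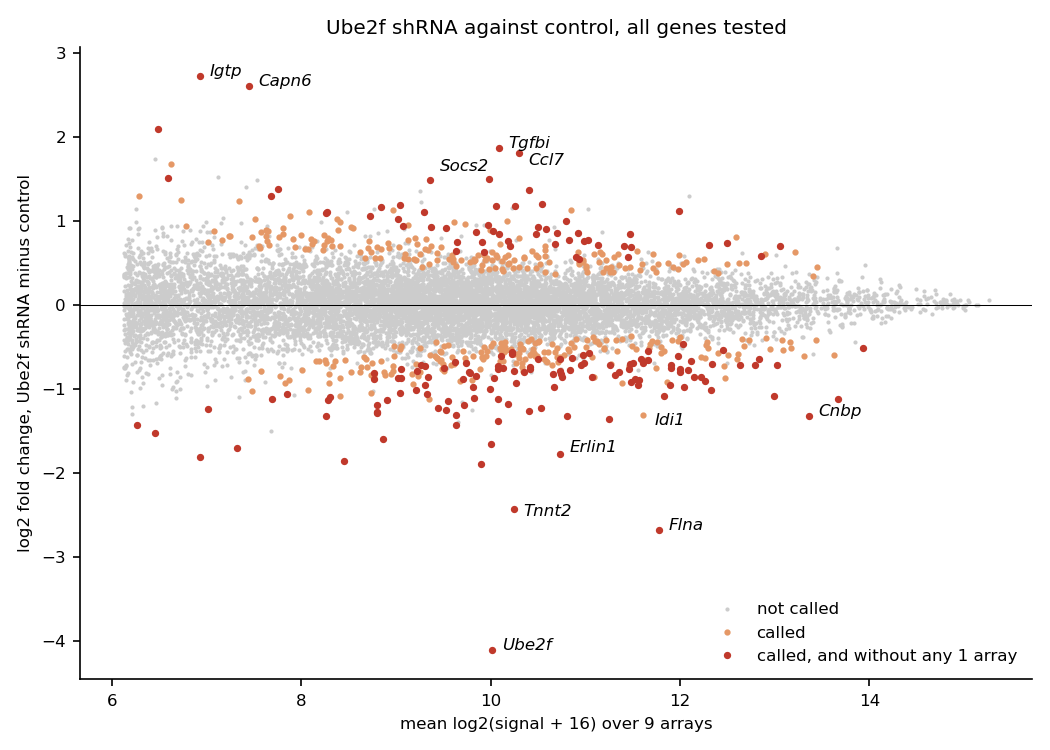
Mean log2(signal + 16) over the 9 arrays (x axis) against the log2 fold change, Ube2f shRNA minus control (y axis), for the 10613 genes tested. Grey points are not called, orange points are called, and red points are the 179 also called without any 1 array. Ube2f lies lowest at -4.11, Flna and Tnnt2 are the next lowest, and Igtp and Capn6 lie highest.

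Of the 148 called genes that the naming rule picked, 34 held their call in every alternative that tested them, 13 higher and 21 lower. Tests in all alternatives were available for 23 of these 34, 9 higher and 14 lower, and the other 11 had none in 1 or more of them. Besides Ube2f, the largest falls among the genes of the stricter set were in Flna, Tnnt2, Mustn1, Mgp, Npr3, Erlin1, Sox21, Zfp469, Dysf, Aldh1a1, Pmepa1, Clstn1, Cibar1, Chml and Cnbp, and the largest rises in Igtp, Capn6, Islr, Tgfbi, Ccl7, C1ra, Rnpep, Socs2, Zfp235, Nsd3, Meg3, Tvp23b, Tnfaip6, Olfml3 and Umad1. Averaging a gene's probe sets ended the calls of Cibar1 (-0.28, adjusted p = 0.564), Chml (-0.91, 0.0554), Zfp235 (0.56, 0.125), Nsd3 (0.47, 0.211), Meg3 (0.64, 0.183) and Umad1 (0.43, 0.186). Adding the beta-actin ratio to the model ended the call of Aldh1a1 (adjusted p = 0.0613).

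**Figure D2:**
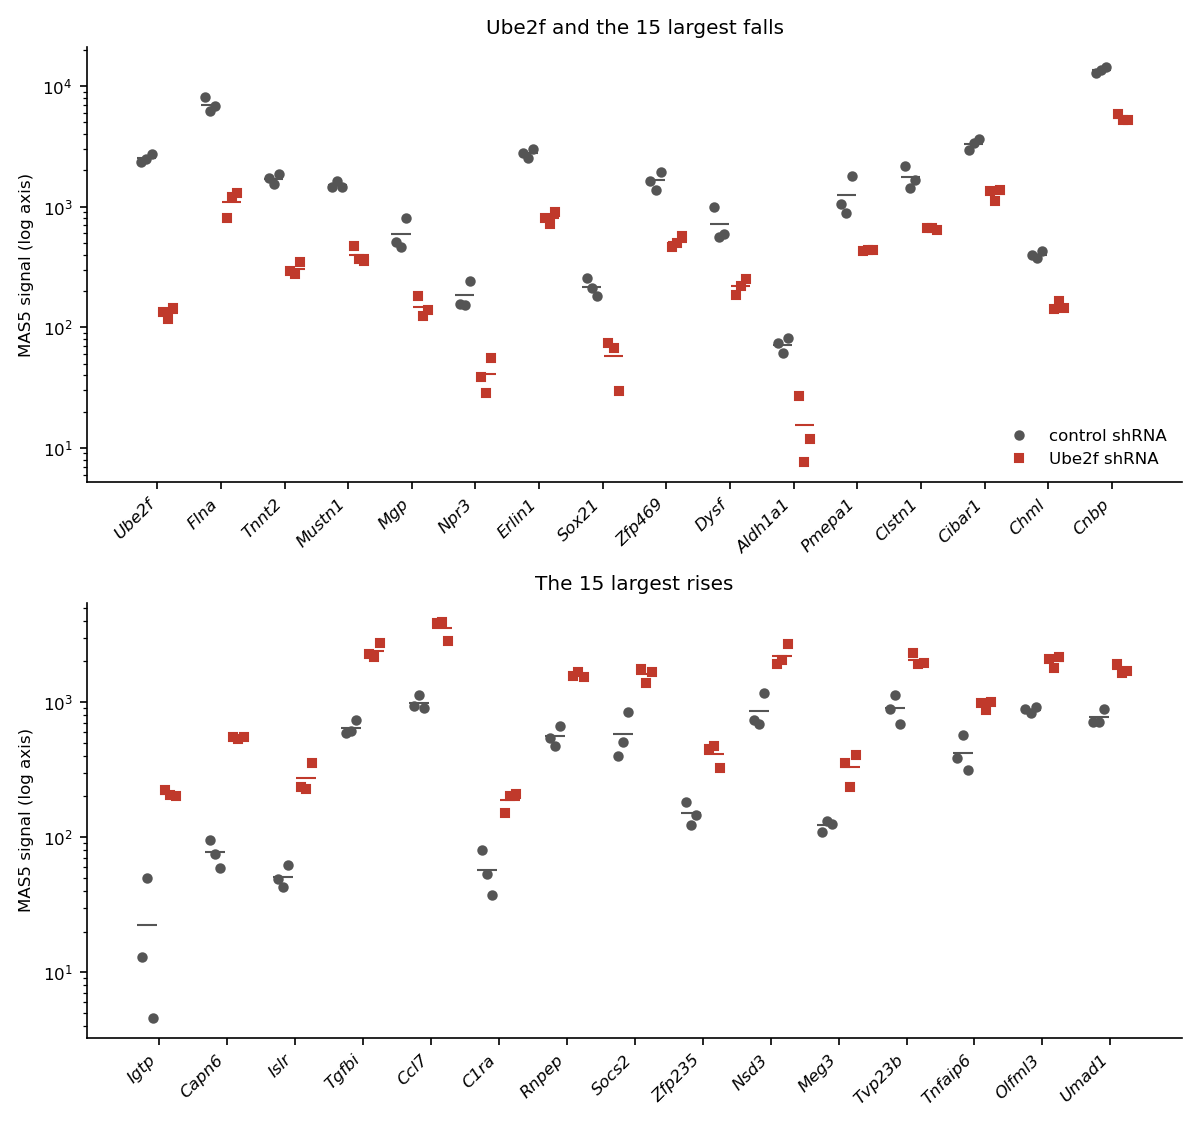
MAS5 signal on a log axis for each control array (grey circles) and Ube2f array (red squares), with a line at the group mean, for Ube2f and the 15 largest falls (upper panel) and the 15 largest rises (lower panel) among genes called with all arrays and without any 1 array. Genes whose control and Ube2f arrays overlapped were not eligible for the 15 rises and falls. Their 3 squares therefore lie on 1 side of the 3 circles by choice.

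Of 65 gene lists, 52 held at least 1 called gene and 13 held none. With 7 marker lists added, 1636 listed genes were tested, of which 60 rose and 78 fell, and 413 called genes were on no list. Over all genes tested 5.19% were called, 2.23% higher and 2.96% lower. The lists were chosen with earlier results of these data known, so a share above that is no independent evidence. Sterol synthesis had the highest share of calls among lists with 10 or more tested members, all downward. The lists are described by counts and medians, beside a median log2 fold change of 0.01 over all genes tested.

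**Figure D3:**
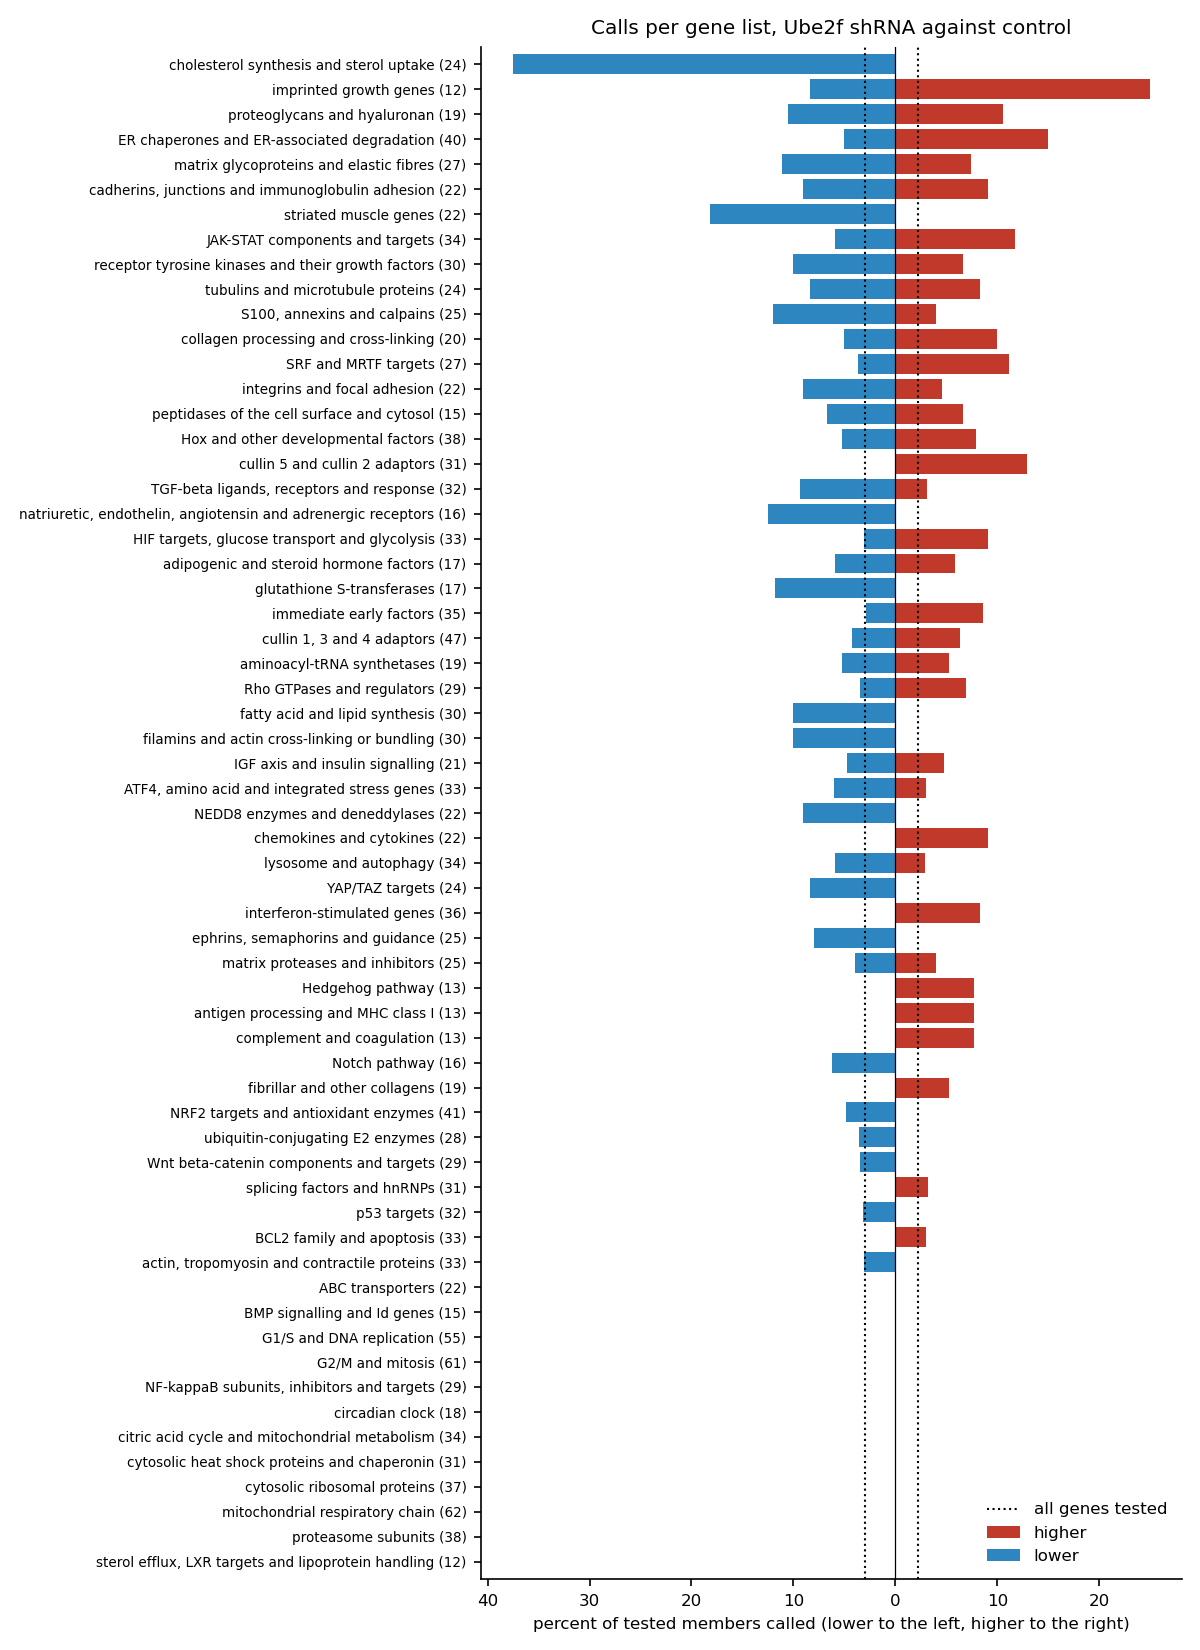
Percent of the tested members of each gene list that were called higher (red, to the right) or lower (blue, to the left) in the Ube2f arrays, for lists with at least 10 tested members; the number tested is in parentheses. Dotted lines mark the shares over all genes, 2.23% higher and 2.96% lower; 9 of 24 sterol genes were called lower, and lists at the bottom had no call.

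Among the substrate adaptors of cullin 5, the ligase that Ube2f serves, and of cullin 2, the only calls were rises of SOCS genes. Of all those tested, 18 lay above and 13 below control, with a median log2 fold change of 0.03. Of 31 tested adaptors of cullins 5 and 2, 4 rose and none fell, 12.9% against 5.19% of all genes, and all 4 belonged to the SOCS family, of which 8 members were tested. Socs2, an inhibitor of growth hormone signalling, read 400.4, 509 and 838 in the control arrays and 1747, 1378 and 1675 in the Ube2f arrays. Every Ube2f array exceeded every control, and the log2 fold change was 1.49 (adjusted p = 0.00183, SE 0.215). Socs2 moved the other way with the Ube2m hairpin, by -0.88 (adjusted p = 0.024), and the direct difference between the targeting hairpins was 2.37 (adjusted p = 1.74e-05, SE 0.215). Socs3, which restrains signalling by interleukin 6 family receptors, read 883, 820.3 and 966 in the control arrays and 1434, 1412 and 1536 in the Ube2f arrays. It rose by 0.71 (adjusted p = 0.00254, SE 0.107), and its change with the Ube2m hairpin, 0.44 (adjusted p = 0.0249), gave a direct difference of 0.27 that was not called (adjusted p = 0.113).

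The remaining pair of SOCS calls was less steady. Cish, which acts on STAT5-activating receptors, read 191, 183 and 222 in the control arrays and 322, 395 and 344 in the Ube2f arrays, a log2 fold change of 0.78 (adjusted p = 0.0153, SE 0.16). Cish was -0.28 with the Ube2m hairpin, and the hairpins differed by 1.06 (adjusted p = 0.000835, SE 0.16). Socs1, an inhibitor of JAK kinases, read 57.8, 46.6 and 48.3 in the control arrays and 136, 167 and 126 in the Ube2f arrays, a log2 fold change of 1.24 (adjusted p = 0.02, SE 0.271) from low signals. Its control mean on the log2(signal + 16) scale, 6.06, was below the filter of 6.12, which it passed through the hairpin arrays, and without the filter Socs1 was not called (adjusted p = 0.0533). Without control replicate 1 or Ube2f replicate 2 the call of Cish was lost (adjusted p up to 0.0655), and without control replicate 1, control replicate 2, Ube2f replicate 1 or Ube2f replicate 2 that of Socs1 (up to 0.0804). Averaged probe sets ended the call of Socs3 (0.48, adjusted p = 0.119), and without probe sets shared between transcripts Socs3 was 0.29, adjusted p = 0.489. Centring ended the call of Cish (0.0648). Socs4, Socs5, Socs6 and Socs7 were not called, with log2 fold changes of -0.10, -0.08, -0.17 and -0.17. The elongins that link these adaptors to cullin 5 lay at 0.03 for Elob and 0.03 for Eloc, neither called.

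**Figure D4:**
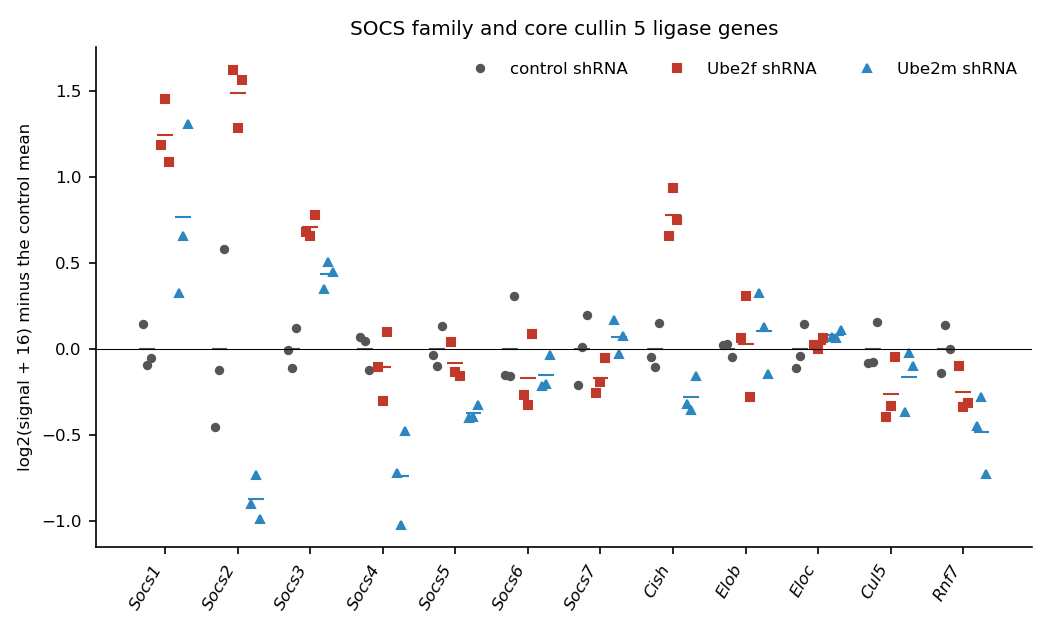
Difference of log2(signal + 16) from the control mean for each array, for the 8 SOCS family genes, the elongins, Cul5 and Rnf7; grey circles are control, red squares Ube2f and blue triangles Ube2m arrays, with a line at each group mean. Red squares lie above all circles for Socs1, Socs2, Socs3 and Cish, and triangles lie below all circles for Socs2.

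SOCS genes are known targets of STAT factors, which bind palindromes of the form TTCNNNGAA. This motif, searched on both strands, was present in 8.3% of 32851 RefSeq mouse promoters (GRCm38.p6, 250 bases before to 50 after a start). Promoters were listed for 3 of the 4 SOCS genes that rose, and 2 of them held the motif. Stretches of these are shown with the motif in capitals. The Igtp promoter, which also holds the motif, was picked by hand. The share with the motif among all genes that rose was not counted, and a common response of these genes was not tested.
Cish, chr9:107296657-107296680 on the plus strand: ttTTCCTGGAAagTTCTTGGAAat
Socs3, chr11:117969367-117969566 on the minus strand: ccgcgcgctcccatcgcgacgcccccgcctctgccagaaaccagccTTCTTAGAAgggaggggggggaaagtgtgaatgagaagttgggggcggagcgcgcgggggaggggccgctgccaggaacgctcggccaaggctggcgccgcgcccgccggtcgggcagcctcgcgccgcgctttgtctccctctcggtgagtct
Igtp, chr11:58199456-58199555 on the plus strand: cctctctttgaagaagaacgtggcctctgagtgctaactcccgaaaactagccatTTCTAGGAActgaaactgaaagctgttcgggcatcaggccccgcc
Within the stretches shown, the motif lay in Cish at positions 1 to 9 and 12 to 20 after the start. In Socs3 it lay at 154 to 146 bases before the start and in Igtp at 45 to 37 bases before it. The Cish stretch was cut around the matches after the start, and matches outside the stretches shown are not given. A match describes the sequence and not a bound site.

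Outside the SOCS family, the calls among JAK-STAT genes were 2 falls. The list of 34 components and targets held 4 rises and 2 falls, 17.6% against 5.19% of all genes. The 4 rises were the SOCS genes already counted among the adaptors. Ghr, the growth hormone receptor, read 2694, 2703 and 3109 in the control arrays and 1873, 1558 and 2141 in the Ube2f arrays and fell by 0.61 (adjusted p = 0.0127, SE 0.122). It also fell with the Ube2m hairpin, -0.59 (adjusted p = 0.0107). Bcl6, a repressor that competes with STAT factors for DNA, read 406, 444 and 474 in the control arrays and 267, 186 and 300.3 in the Ube2f arrays, a change of -0.80 (adjusted p = 0.0177, SE 0.17). Neither held in the stricter set: Ghr was lost without Ube2f replicate 1 (adjusted p = 0.0538) and Bcl6 without Ube2f replicate 1, Ube2f replicate 2 or control replicate 3 (up to 0.0533). Stat5a and Stat5b, the main STAT factors of the growth hormone receptor, lay at 0.25, adjusted p = 0.347 and -0.02, adjusted p = 0.966. Stat3, which serves interleukin 6 family receptors, lay at 0.03, adjusted p = 0.937 and Jak2 at -0.10, adjusted p = 0.803.

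Many genes of cholesterol synthesis fell. Cells make cholesterol from acetyl groups by way of mevalonate, isoprenoids, squalene and lanosterol, and the enzymes are transcribed together under SREBP2 when sterols are scarce. Of 24 tested genes of synthesis and uptake, 9 fell and none rose, 37.5% against 5.19% of all genes, with a median log2 fold change of -0.31. With the Ube2m hairpin 8 of the 24 rose and none fell, with a median of 0.35, and in the direct comparison 13 were lower in the Ube2f arrays and none higher.

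The fall ran from mevalonate to the lanosterol steps. Mvd, which makes isopentenyl diphosphate from mevalonate diphosphate, read 769, 611 and 738 in the control arrays and 331, 342 and 352 in the Ube2f arrays. Its control and Ube2f arrays were widely separated, and it fell by 1.01 (adjusted p = 0.00111, SE 0.133). Idi1, the isomerase of the next step, read 3248, 3028 and 5929 in the control arrays and 1441, 1211 and 2145 in the Ube2f arrays, a log2 fold change of -1.31 (adjusted p = 0.00981, SE 0.248) that showed the widest spread between arrays of these genes. Fdps, which joins isoprene units, read 3987, 5556 and 4928 in the control arrays and 2798, 3502 and 3099 in the Ube2f arrays and fell by 0.61 (adjusted p = 0.0165, SE 0.129). Fdft1, which makes squalene, read 3124, 3194 and 3269 in the control arrays and 1973, 2167 and 1804 in the Ube2f arrays. It was -0.69 here and 0.57 with the Ube2m hairpin, and the hairpins differed by -1.26 (adjusted p = 7.63e-06, SE 0.103). Sqle, the squalene epoxidase and a rate-limiting step, read 4426, 3954 and 5004 in the control arrays and 2557, 2317 and 3084 in the Ube2f arrays. That is a log2 fold change of -0.75 (adjusted p = 0.00578, SE 0.129), with 0.08 for the Ube2m hairpin. Cyp51, which demethylates lanosterol, read 6466, 6302 and 7666 in the control arrays and 3749, 3934 and 4819.9 in the Ube2f arrays, a log2 fold change of -0.71 (adjusted p = 0.00418, SE 0.117).

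Lss, Msmo1 and Insig1 completed the calls. Lss, which closes the sterol rings, gave -0.60, adjusted p = 0.0221. Msmo1, a methyl sterol oxidase, gave -0.72, adjusted p = 0.0162, and Insig1, which holds SREBP in the endoplasmic reticulum and is itself an SREBP target, gave -0.52, adjusted p = 0.0467. The regulator Srebf2 was -0.45 and not called (adjusted p = 0.268), as were Hmgcs1 at -0.30 and Dhcr7 at -0.19. Only Mvd, Fdft1, Sqle and Cyp51 held without any 1 array; without Ube2f replicate 1 the calls fell to 4, with adjusted p up to 0.0514 for Idi1, 0.0975 for Fdps (also lost without control replicate 2), 0.0785 for Msmo1 (also without Ube2f replicate 2), 0.119 for Lss (also without control replicate 1, control replicate 3 or Ube2f replicate 2) and 0.154 for Insig1 (also without control replicate 2, control replicate 3, Ube2f replicate 2, Ube2m replicate 1 or Ube2m replicate 2). Centring ended the calls of Fdps (adjusted p = 0.108), Fdft1 (0.0677) and Insig1 (0.0659). With probe sets averaged 3 of the 9 stayed called, and the value of Fdps became -0.06, of Msmo1 -0.24, of Fdft1 -0.30 and of Cyp51 -0.42.

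**Figure D5:**
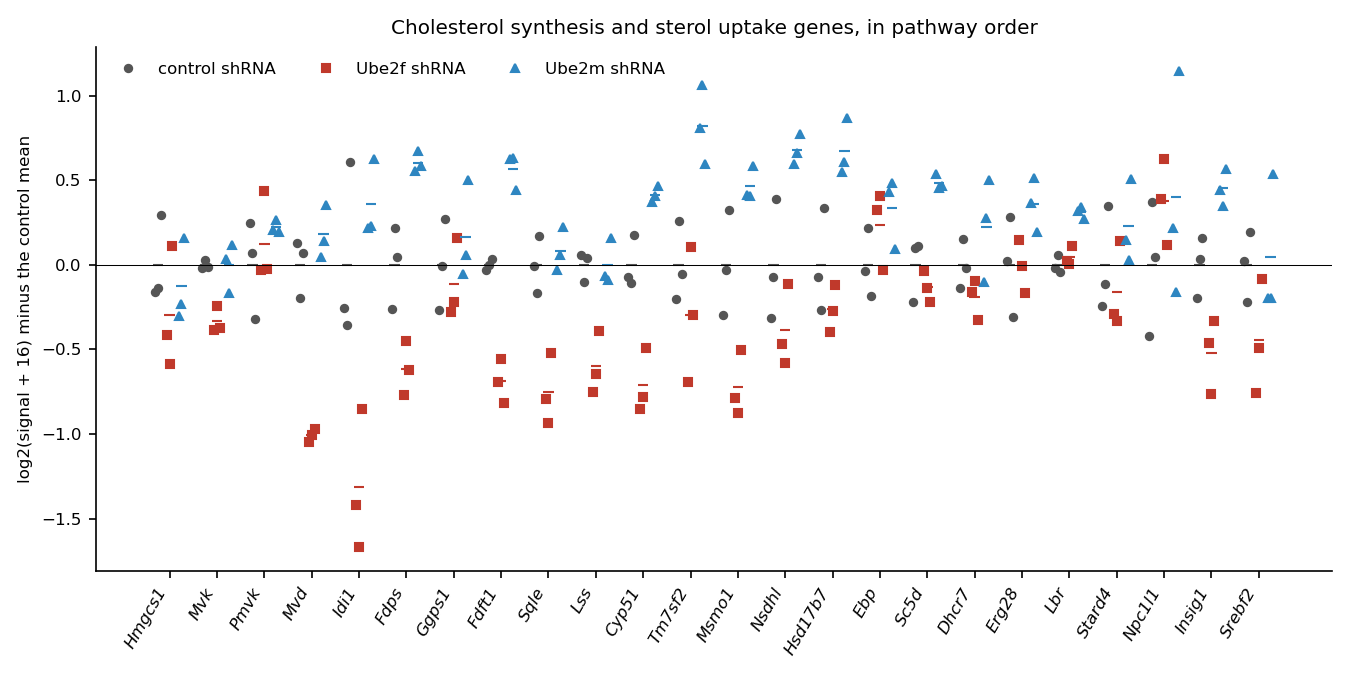
Difference of log2(signal + 16) from the control mean for each array, for the 24 tested genes of cholesterol synthesis and sterol uptake in pathway order; grey circles are control, red squares Ube2f and blue triangles Ube2m arrays, with a line at each group mean. Red squares lie below the circles for the 9 genes called, most clearly Mvd and Idi1, where triangles lie at or above the control mean.

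Sterol gene promoters often hold CCAAT boxes, bound by NF-Y, beside sites for SREBP. CCAAT, on either strand, occurred in 37.4% of all RefSeq promoters. It was found in all 6 of the 9 lowered genes that had a listed promoter, and in 13 of 14 sterol genes that were tested and not called. The SREBP motif TCACNCCAC was in 1.24% of all promoters, in none of those 6 and in 1 of those 14, Hmgcs1. The upstream stretches of Mvd and Idi1, which had the largest falls, are shown with their CCAAT boxes (ATTGG on the other strand) in capitals.
Mvd, chr8:122443423-122443622 on the minus strand: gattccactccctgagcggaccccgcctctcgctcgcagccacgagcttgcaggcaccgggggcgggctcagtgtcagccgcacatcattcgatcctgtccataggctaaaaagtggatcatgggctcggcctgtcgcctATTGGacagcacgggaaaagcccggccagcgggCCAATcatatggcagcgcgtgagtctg
Idi1, chr13:8885406-8885605 on the plus strand: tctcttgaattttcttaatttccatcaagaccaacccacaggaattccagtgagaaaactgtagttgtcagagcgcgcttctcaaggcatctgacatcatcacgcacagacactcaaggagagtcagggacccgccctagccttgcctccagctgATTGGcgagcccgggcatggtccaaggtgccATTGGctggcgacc
Both boxes of Mvd lay within 60 bases of the start and both of Idi1 within 45.

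Fatty acid synthesis leaned the same way with fewer calls. Of 30 tested genes 3 fell and none rose, 10.0% against 5.19% of all genes, and the median was -0.24. At an unadjusted limma p under 0.05, 13 members were lower and 1 higher, where 10.5% and 9.75% of all genes were. In the direct comparison of the targeting hairpins 11 were lower in the Ube2f arrays and 1 higher. Fasn, the fatty acid synthase, read 4414, 3546 and 4689.5 in the control arrays and 2469, 2997 and 3034 in the Ube2f arrays (-0.57, adjusted p = 0.0194). Scd1, which desaturates stearate, gave -0.51, adjusted p = 0.0315, and Fads2, a desaturase of longer chains, gave -0.53, adjusted p = 0.0368. None of the 3 held in the stricter set: Fasn was lost without control replicate 1, control replicate 3 or Ube2f replicate 1 (adjusted p up to 0.112), and Scd1 and Fads2 without these, Ube2f replicate 2, Ube2m replicate 1 or Ube2m replicate 2 (up to 0.137 and 0.178). Sterol efflux and lipoprotein genes, many of them LXR targets, had no call among 12 tested.

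Next to Ube2f, the deepest fall was in filamin A. Flna, a large protein that cross-links actin filaments and ties them to membrane receptors, read 8088, 6164 and 6845 in the control arrays and 799.9, 1195 and 1299 in the Ube2f arrays. All 3 Ube2f arrays lay far below the controls, the mean was 15.6% of control and the log2 fold change was -2.68 (adjusted p = 2.86e-06, SE 0.168). In the Ube2m arrays Flna was -0.32 (adjusted p = 0.271), and the hairpins differed by -2.36 (adjusted p = 3.21e-06, SE 0.168). Flnc, the filamin of muscle, read 2403, 1980.5 and 2178 in the control arrays and 1421, 1532 and 1279 in the Ube2f arrays, a change of -0.63 (adjusted p = 0.00694, SE 0.112). Pdlim1, an adaptor that binds alpha-actinin, gave -0.64, adjusted p = 0.011. These were the 3 falls among 30 tested cross-linking and bundling proteins, 10.0%, with no rise, a median of -0.24 and 14 members lower at an unadjusted p under 0.05 (10.5% of all genes were). Averaged probe sets ended the calls of Flnc (-0.37, adjusted p = 0.42) and Pdlim1 (-0.45, 0.178), Pdlim1 was also lost without control replicate 1 or Ube2f replicate 1 (0.0601), and centring ended both (Flnc 0.0724, Pdlim1 0.136).

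The contractile apparatus itself did not follow. Of 33 tested actins, tropomyosins, myosins and related proteins 1 was called, 3.03%, with a median of -0.03. That was Actg2, a smooth muscle actin, at -0.55, adjusted p = 0.0315, and it was lost without any of 6 of the 9 arrays (all but Ube2m replicate 1, Ube2f replicate 2 and Ube2m replicate 3; adjusted p up to 0.119).

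A few genes known from striated muscle fell sharply. Of 22 tested 4 fell and none rose, 18.2%, although the list's median was 0.03. Tnnt2, the troponin T of heart, read 1723, 1534 and 1869.8 in the control arrays and 295, 274 and 348 in the Ube2f arrays. Its Ube2f signals were 17.9% of control on average, a log2 fold change of -2.42 (adjusted p = 4.03e-07, SE 0.122). It rose with the Ube2m hairpin, by 0.93 (adjusted p = 0.000705), so that the hairpins differed by -3.35 (adjusted p = 5.02e-09, SE 0.122). Mustn1, a small nuclear protein of muscle and cartilage, read 1448, 1628 and 1444 in the control arrays and 473, 366 and 352 in the Ube2f arrays and fell by 1.89 (adjusted p = 3.12e-05, SE 0.152), with no call for the Ube2m hairpin (-0.14). Fhl1, a LIM protein of muscle, read 8227, 8436 and 12389.8 in the control arrays and 4452, 4989 and 4032 in the Ube2f arrays, a log2 fold change of -1.09 (adjusted p = 0.00154, SE 0.151). Mef2d, a transcription factor of the MEF2 family, gave -0.71, adjusted p = 0.00867, lost without Ube2f replicate 1 (adjusted p = 0.053). With probe sets averaged Tnnt2 was -1.42, and Fhl1 (-0.75, adjusted p = 0.0544) and Mef2d (-0.53, 0.105) were not called. Dysf, a membrane repair protein of muscle and another of the largest falls, read 994, 562 and 592 in the control arrays and 187, 221 and 249 in the Ube2f arrays, a log2 fold change of -1.60 (adjusted p = 0.0008, SE 0.199). Skeletal muscle regulators were dim throughout: the mean signal of Myod1 was 28.3 in control and 40.3 in Ube2f arrays, and that of Myog 17.1 and 16.9.

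Genes of the secreted matrix changed in both directions. Tgfbi, an adhesion protein induced by TGF-beta, read 588, 609 and 732 in the control arrays and 2265, 2153 and 2744 in the Ube2f arrays. The rise of 1.87 (adjusted p = 3.12e-05, SE 0.15) was well clear of the spread, and the hairpins differed by 1.53 (adjusted p = 3.39e-05, SE 0.15). Pmepa1, a TGF-beta target that limits the pathway, read 1059, 878 and 1789.7 in the control arrays and 425, 436 and 435 in the Ube2f arrays and fell by 1.42 (adjusted p = 0.00191, SE 0.206). Thus a pair of TGF-beta response genes changed in opposite directions. Among 32 tested TGF-beta ligands, receptors and response genes 1 rose and 3 fell, 12.5%, the others being Skil (-0.69, adjusted p = 0.0104) and Ltbp1 (-0.59, adjusted p = 0.0245). Skil was lost without Ube2f replicate 1 (adjusted p = 0.0519) and Ltbp1 without control replicate 1, control replicate 3, Ube2f replicate 1 or Ube2f replicate 2 (up to 0.101).

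Among 27 tested matrix glycoproteins and elastic fibre genes 2 rose and 3 fell, 18.5%, and the median was -0.12. Islr, a secreted leucine-rich repeat protein of mesenchymal cells, read 48.7, 42.7 and 61.8 in the control arrays and 236, 227 and 355 in the Ube2f arrays. It rose by 2.09 (adjusted p = 0.00202, SE 0.306), while with the Ube2m hairpin it was -0.79 (adjusted p = 0.127). Islr passed the filter on low signals, a mean log2(signal + 16) of 6.12, through the Ube2f arrays where it was high: their mean was 8.15, against 6.06 in control and 5.26 in Ube2m arrays. Mgp, the matrix Gla protein that inhibits calcification, read 508, 460.4 and 801 in the control arrays and 181, 125 and 138 in the Ube2f arrays and fell by 1.86 (adjusted p = 0.00035, SE 0.208). Spon2 read 1242, 1512 and 989 in the control arrays and 2449, 2517 and 2476 in the Ube2f arrays, a rise of 1.00 (adjusted p = 0.00262, SE 0.154). Mfap5, a microfibril protein, read 2052, 2277 and 1856 in the control arrays and 1226, 1314 and 958 in the Ube2f arrays, a log2 fold change of -0.82 (adjusted p = 0.00693, SE 0.146). The fifth call was Ccdc80 (-0.63, adjusted p = 0.0229), lost without control replicate 1, control replicate 2, Ube2f replicate 1 or Ube2f replicate 3 (up to 0.114). Centring ended the call of Mfap5 (adjusted p = 0.0817), as did averaged probe sets (-0.48, 0.163), and without probe sets shared between transcripts Spon2 was 0.21, adjusted p = 0.623. Olfml3, a secreted olfactomedin protein on no list, was among the largest rises, at 883, 822 and 919.9 in the control arrays and 2069, 1779.7 and 2158 in the Ube2f arrays (1.18, adjusted p = 0.000161).

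Among 19 tested collagen genes, 3 were higher and 4 lower at an unadjusted limma p under 0.05, where 9.75% and 10.5% of all genes were. Only 1 collagen gene was called (5.26%, near the 5.19% of all genes). That gene, Col6a2, differed by 0.34, adjusted p = 0.0443 and its call was lost without any 1 array except Ube2m replicate 3 (up to 0.161). Collagen-modifying enzymes showed 2 rises and 1 fall among 20 tested, 15%. P3h1, a prolyl 3-hydroxylase, read 659, 574 and 521 in the control arrays and 839, 1107 and 1035 in the Ube2f arrays and rose by 0.75 (adjusted p = 0.00702, SE 0.133). P4ha2, a prolyl 4-hydroxylase subunit, read 1644, 1432 and 1408 in the control arrays and 2137, 2113 and 2417 in the Ube2f arrays, a change of 0.57 (adjusted p = 0.00947, SE 0.107). Lox, which cross-links collagen and elastin, read 21776, 19461 and 18899 in the control arrays and 14247, 14198 and 13684 in the Ube2f arrays and fell by 0.51 (adjusted p = 0.00872, SE 0.0948). All 3 were called in the same direction with the Ube2m hairpin (P3h1 0.50, P4ha2 0.45, Lox -0.57), and the direct test called none (adjusted p = 0.257, 0.538 and 0.726). None of the 3 was called with each array centred (adjusted p = 0.0731, 0.166 and 0.197), Lox was lost with the beta-actin covariate (0.0613), and P3h1 was also lost with averaged probe sets (0.47, 0.069).

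Around the matrix, Tnfaip6, a hyaluronan-binding protein of inflammation, read 387, 567 and 312 in the control arrays and 987, 879 and 993 in the Ube2f arrays and rose by 1.19 (adjusted p = 0.00526, SE 0.202). It was 1 of 4 calls among 19 proteoglycan and hyaluronan genes (2 rises and 2 falls, 21.1%), of which 1 was called without control replicate 1, and the only 1 that held without any 1 array. Reck, a membrane inhibitor of matrix metalloproteinases, read 849.5, 792 and 857 in the control arrays and 1318, 1224 and 1389 in the Ube2f arrays. Its rise of 0.64 (adjusted p = 0.0066, SE 0.113) contrasted with -0.92 (adjusted p = 0.000441) for the Ube2m hairpin, and the hairpins differed by 1.57 (adjusted p = 3.51e-06, SE 0.113). Timp1, a secreted inhibitor of the same enzymes, read 8116, 8380.4 and 10996 in the control arrays and 5551, 6256 and 4892 in the Ube2f arrays and fell by 0.71 (adjusted p = 0.00918, SE 0.133). These were the calls among 25 tested proteases and inhibitors, 8%. Tns3, a focal adhesion protein, read 5949.8, 5086 and 6564 in the control arrays and 3313, 3168 and 3136 in the Ube2f arrays, a log2 fold change of -0.86 (adjusted p = 0.000749, SE 0.106), and was the only 1 of 3 calls among 22 integrin and focal adhesion genes (13.6%) that held without Ube2f replicate 1. Centring ended the calls of Timp1 (adjusted p = 0.0884) and Reck (0.0526), and averaged probe sets that of Tns3 (-0.45, 0.257).

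Among secreted proteins of the immune system a pair of chemokines and a complement protease rose. Ccl7, a chemokine that draws monocytes, read 939, 1126 and 901 in the control arrays and 3818, 3879 and 2827 in the Ube2f arrays. The Ube2f arrays stood well above all controls, with a rise of 1.80 (adjusted p = 6.82e-05, SE 0.162). Ccl7 fell by 0.80 on the same scale in the Ube2m arrays, and the hairpins differed by 2.61 (adjusted p = 1.56e-06, SE 0.162). Cxcl12, a chemokine that holds leukocytes and stem cells in stroma, read 1152, 1094 and 776 in the control arrays and 1725, 1672 and 2092 in the Ube2f arrays, a rise of 0.86 (adjusted p = 0.00787, SE 0.157). With the Ube2m hairpin Cxcl12 was -1.28 (adjusted p = 0.000448). Both were the only calls among 22 chemokines and cytokines, 9.09%, with averaged probe sets ending that of Cxcl12 (0.47, adjusted p = 0.286). C1ra, a protease of the complement C1 complex, read 80.1, 53.3 and 37.2 in the control arrays and 150.5, 201 and 210.2 in the Ube2f arrays, a rise of 1.51 (adjusted p = 0.0102, SE 0.29) and the only call among 13 complement and coagulation genes.

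The largest rise of all was in Igtp, an interferon-inducible GTPase also called Irgm3, whose promoter is shown above. It read 12.9, 50.2 and 4.6 in the control arrays and 222, 204 and 203 in the Ube2f arrays, and the control signals were near the bottom of the scale. The control mean of log2(signal + 16), 5.09, was below the filter of 6.12, which Igtp passed through the Ube2f and Ube2m arrays, with means of 7.82 and 7.89. The rise of 2.73 (adjusted p = 0.00191, SE 0.395) was matched by 2.80 (adjusted p = 0.00106) with the Ube2m hairpin, where the signals were 248, 325 and 133, and the direct difference was -0.08 (adjusted p = 0.928). Gbp2, another GTPase of this class, read 132, 136 and 137 in the control arrays and 275, 276 and 235 in the Ube2f arrays, a change of 0.88 (adjusted p = 0.00997, SE 0.167), lost without Ube2f replicate 1 (adjusted p = 0.0586) and with centred arrays (0.0849). They were 2 of the 4 tested interferon-inducible GTPases, 50% against 5.19% of all genes. Only these 4 of 22 listed names were tested, Igtp through its hairpin arrays, too few for a conclusion about the family. Of 36 tested interferon-stimulated genes 3 rose and none fell, 8.33%, with a median of 0.21 and 10 members higher at an unadjusted p under 0.05 (9.75% of all genes were). The 3 were Oas1a (1.30, adjusted p = 0.036), Herc6 (0.71, adjusted p = 0.025) and Trim25 (0.45, adjusted p = 0.0278). Oas1a too lay below the filter in control, at 5.34, and was not called without it (adjusted p = 0.0773). Without control replicate 1, control replicate 2, Ube2f replicate 1 or Ube2f replicate 3 none of the 3 was called (adjusted p up to 0.119, 0.104 and 0.0909). Oas1a and Trim25 were also lost without Ube2f replicate 2 or Ube2m replicate 1, Oas1a without control replicate 3 and Trim25 without Ube2m replicate 2. Of 29 NF-kappaB subunits, inhibitors and targets none was called by limma, with an unadjusted p under 0.05 for 4 higher members and 1 lower.

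In the endoplasmic reticulum, where secreted and membrane proteins fold, more chaperone and degradation genes rose than fell. Of 40 tested chaperones and degradation factors 6 rose and 2 fell, 20%, with an unadjusted p under 0.05 for 14 higher and 4 lower members, with a median of 0.15. Xbp1, the transcription factor spliced by the stress sensor Ire1, read 7349, 7692 and 5752 in the control arrays and 11337, 12705 and 9855 in the Ube2f arrays and rose by 0.71 (adjusted p = 0.00836, SE 0.13). Creld2 read 1991, 1936 and 1622 in the control arrays and 2909.7, 3181 and 2533 in the Ube2f arrays (0.63, adjusted p = 0.0129) and Manf read 6106, 6777 and 5313 in the control arrays and 9322, 10539 and 7992 in the Ube2f arrays (0.61, adjusted p = 0.0175), both secreted products of that stress response. The largest change of the list was a fall, in Erlin1, a protein of the reticulum membrane that directs receptors to degradation and binds sterol regulators. Erlin1 read 2792, 2559.6 and 3000.0 in the control arrays and 801, 726 and 896 in the Ube2f arrays, with a log2 fold change of -1.77 (adjusted p = 2.86e-06, SE 0.11), against -0.38 (adjusted p = 0.0494) with the Ube2m hairpin. The call of Creld2 was lost without Ube2f replicate 1 or 2 (adjusted p up to 0.0629) and that of Manf without either, control replicate 1 or control replicate 3 (up to 0.0785). Centring ended the calls of Xbp1 (0.214), Creld2 (0.246) and Manf (0.31), and no gene of the list was then called higher. Without Ube2f replicate 1 the list held 1 rise and 1 fall, and averaged probe sets gave -0.97 for Erlin1, still called.

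Detoxifying genes differed between the targeting hairpins. Gsta4, a glutathione S-transferase that clears lipid aldehydes, read 1698, 1554 and 1763 in the control arrays and 923, 945 and 814 in the Ube2f arrays and fell by 0.89 (adjusted p = 0.000477, SE 0.105). In the Ube2m arrays it read 18859, 18721 and 16553, a rise of 3.42 (adjusted p = 1.72e-09), and the direct difference was -4.31 (adjusted p = 9.63e-11, SE 0.105). Gsto1, of the omega class, read 8548, 8443 and 9377 in the control arrays and 5264, 6231 and 4697 in the Ube2f arrays, a log2 fold change of -0.71 (adjusted p = 0.00307, SE 0.112), and was 0.48 (adjusted p = 0.0192) with the Ube2m hairpin. Of 17 tested transferases 2 fell and none rose with the Ube2f hairpin (11.8%), 7 rose and none fell with the Ube2m hairpin, and in the direct test 9 were lower in the Ube2f arrays and none higher. NRF2, the factor that drives many such genes, is degraded through a cullin 3 ligase. Of 41 NRF2 targets and antioxidant enzymes none rose and 2 fell here (4.88%, near the share of all genes), Hmox1 at -0.79, adjusted p = 0.034 and Txnrd1 at -0.42, adjusted p = 0.0188. With the Ube2m hairpin 19 of the 41 rose, and in the direct test 20 were lower and 1 higher in the Ube2f arrays. Without control replicate 1, control replicate 3 or Ube2f replicate 1 both NRF2 calls were lost, Hmox1 also without Ube2m replicate 1 or Ube2f replicate 3 (adjusted p up to 0.119 and 0.117); Txnrd1 was 0.01 with averaged probe sets, and Gsto1 was lost with centred arrays (0.0798). Aldh1a1, which makes retinoic acid, read 73.8, 60.9 and 80.8 in the control arrays and 26.8, 7.6 and 11.9 in the Ube2f arrays. Its log2 fold change was -1.52 (adjusted p = 0.0115), and 1.53 (adjusted p = 0.00777) with the Ube2m hairpin.

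Growth factor receptors changed in both directions. Met, the receptor of hepatocyte growth factor, read 1658, 1254 and 1506 in the control arrays and 613, 518 and 692 in the Ube2f arrays. It fell by 1.26 (adjusted p = 0.00025, SE 0.134) and rose with the Ube2m hairpin by 0.89 (adjusted p = 0.0017), so that the hairpins differed by -2.14 (adjusted p = 1.56e-06, SE 0.134). Pdgfra, a receptor of fibroblasts and also a fibroblast marker, read 1450.1, 1389 and 1509 in the control arrays and 2147, 2182 and 2942 in the Ube2f arrays and rose by 0.72 (adjusted p = 0.00997, SE 0.137). Ptn, a secreted heparin-binding growth factor, read 3665, 4700.1 and 2330.2 in the control arrays and 8648, 6854 and 7069.6 in the Ube2f arrays, a rise of 1.12 (adjusted p = 0.00642, SE 0.197) from uneven control signals. Among 30 tested receptor tyrosine kinases and their ligands 2 rose and 3 fell, 16.7%, and without Ube2f replicate 1 the calls were 2 rises and 1 fall. Igf1r, the receptor of IGF1, read 3805, 2844 and 3417 in the control arrays and 1769, 1835 and 1971 in the Ube2f arrays and fell by 0.84 (adjusted p = 0.00284, SE 0.13). Ptch1, the Hedgehog receptor and itself a Hedgehog target, read 935, 784 and 661 in the control arrays and 1472, 1354 and 1558 in the Ube2f arrays, a rise of 0.88 (adjusted p = 0.00254, SE 0.134), and was the only call among 13 Hedgehog genes. Npr3, the clearance receptor of natriuretic peptides, read 157, 154 and 241 in the control arrays and 38.6, 28.7 and 55.6 in the Ube2f arrays and fell by 1.81 (adjusted p = 0.00225, SE 0.27). Averaged probe sets ended the calls of Igf1r (-0.20, adjusted p = 0.612) and Ptch1 (0.74, 0.144), and centring that of Ptn (0.0648). Npr3 was -1.05 with averaged probe sets, still called.

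Developmental and imprinted genes contributed single large changes. Sox21, a transcription factor of the SOX family, read 255, 210.2 and 180.2 in the control arrays and 74.7, 67.9 and 29.6 in the Ube2f arrays, a log2 fold change of -1.71 (adjusted p = 0.00262, SE 0.261). Snai2, a repressor of epithelial genes, read 4539.9, 4614 and 4702 in the control arrays and 7977, 7474 and 7312 in the Ube2f arrays, tight in both groups, and rose by 0.71 (adjusted p = 0.000836, SE 0.0892), with -0.32 (adjusted p = 0.0384) for the Ube2m hairpin. They were 2 of 5 calls in 38 tested developmental factors (13.2%, 3 rises and 2 falls), and the only ones that held without control replicate 1. Of 12 tested imprinted genes 3 rose and 1 fell, 33.3%. Meg3, a maternally expressed long RNA, read 109, 132 and 126 in the control arrays and 354, 236 and 405 in the Ube2f arrays and rose by 1.30 (adjusted p = 0.00351, SE 0.209). Peg3, a paternally expressed zinc finger gene, read 778, 418 and 421 in the control arrays and 1086, 1069.5 and 1246 in the Ube2f arrays, a rise of 1.11 (adjusted p = 0.00939, SE 0.209). Sema3a, a repulsive guidance cue, read 1253, 1425 and 1990.1 in the control arrays and 644, 562 and 809 in the Ube2f arrays and fell by 1.18 (adjusted p = 0.0029, SE 0.184). The other 2 imprinted calls were Dcn (0.68, adjusted p = 0.0493), lost without any 1 array except Ube2f replicate 2 and Ube2m replicate 3, and Impact (-0.61, adjusted p = 0.012). Averaged probe sets ended all 4 imprinted calls (Peg3 0.65, Meg3 0.64, Dcn 0.67 and Impact -0.48, adjusted p = 0.084, 0.183, 0.124 and 0.319). Sox21 had no test with averaged probe sets, and centring ended the call of Snai2 (adjusted p = 0.0799).

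Other large changes fell outside these groups. Capn6, a calpain without protease activity that stabilises microtubules, read 95.9, 75.7 and 59.5 in the control arrays and 547, 530.2 and 551 in the Ube2f arrays, a rise of 2.60 (adjusted p = 0.000157, SE 0.26). With the Ube2m hairpin Capn6 was 0.17 (adjusted p = 0.76), a direct difference of 2.44 (adjusted p = 6.16e-05, SE 0.26). Rnpep, an aminopeptidase, read 540.0, 469 and 660.3 in the control arrays and 1569.5, 1666 and 1525 in the Ube2f arrays and rose by 1.5 (adjusted p = 6.82e-05, SE 0.133), with 1.02 (adjusted p = 0.000682) for the Ube2m hairpin. Cnbp, a zinc finger protein that binds nucleic acids, read 12866, 13578 and 14481 in the control arrays and 5916, 5230.2 and 5229 in the Ube2f arrays and fell by 1.32 (adjusted p = 3.12e-05, SE 0.106), with 0.19 (adjusted p = 0.308) for the Ube2m hairpin. Clstn1, a calsyntenin of vesicle transport, read 2189, 1439 and 1674 in the control arrays and 667, 663 and 645 in the Ube2f arrays, a log2 fold change of -1.38 (adjusted p = 0.000163, SE 0.141). Zfp469 read 1623, 1389 and 1948 in the control arrays and 459, 499 and 574 in the Ube2f arrays, a log2 fold change of -1.66 (adjusted p = 9.9e-05, SE 0.155). Bnip3, a mitochondrial protein of mitophagy and a target of HIF, read 819, 941 and 936 in the control arrays and 1714, 1567 and 1613 in the Ube2f arrays and rose by 0.85 (adjusted p = 0.000943, SE 0.108), the only call among 33 BCL2 family and apoptosis genes. With P4ha2 it was 1 of 4 calls among 33 HIF target, glucose transport and glycolysis genes (3 rises and 1 fall, 12.1%). The others were Pdk1, a kinase that restrains pyruvate oxidation (0.55, adjusted p = 0.0397), and Pfkl, a phosphofructokinase of glycolysis (-0.74, adjusted p = 0.0109). Pdk1 was lost without control replicate 1 or 3, Ube2f replicate 1 or 3, or Ube2m replicate 1 or 2 (adjusted p up to 0.19), Pfkl without Ube2f replicate 1 (0.0646), and both with averaged probe sets (0.667 and 0.0849). Zmat3, a p53 target, read 2739.6, 2408 and 2130.1 in the control arrays and 1455, 1411 and 1329 in the Ube2f arrays. The log2 fold change was -0.78 (adjusted p = 0.00263, SE 0.12), beside -0.76 (adjusted p = 0.00226) with the Ube2m hairpin. Zmat3 was the only call among 32 p53 targets. Ube2q1 was the only call among 28 ubiquitin-conjugating enzymes, at 1290.0, 1167 and 1309.8 in the control arrays and 734, 860.1 and 617 in the Ube2f arrays (-0.77, adjusted p = 0.0066).

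Lists of cell division, respiration and protein turnover gave no calls in this model. By limma none was called among 55 genes of G1/S and DNA replication, 61 of G2/M and mitosis, 8 CDK inhibitors and pocket proteins, 62 of the respiratory chain, 34 of the citric acid cycle and mitochondrial metabolism, 37 ribosomal proteins, 38 proteasome subunits, 31 cytosolic heat shock proteins, 18 circadian clock genes, 15 BMP and Id genes or 22 ABC transporters. With sterol efflux and NF-kappaB these 13 lists held 422 tested genes, with an unadjusted p under 0.05 for 31 higher and 26 lower. In the model with replicate 3 as a batch term 20 of the 422 were called higher and 17 lower, 8.77% against 13.8% of all genes. The medians of these lists lay between -0.13 for the clock and 0.22 for the CDK inhibitors. Among 2269 probe sets without a gene name, 1.15% were called. A missed threshold with 3 arrays a group does not show that these genes were unaffected.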

How the data were processed

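The authors deposited 1 table of linear signal intensity per probe set for 9 Affymetrix arrays, made with MAS5 per the submitters' processing notes; no version, settings or detection calls are given. Of 45101 probe sets, 64 controls, 932 assigned to several genes and 9160 without a name were left out; the probe set with the highest mean stood for each of 18193 genes, and the 10613 genes whose mean log2(signal + 16) reached the median (6.12, a signal of 53.8) were tested. The model had a mean for each of 3 groups and used every array (limma 3.58.1, lmFit and eBayes with trend, under R 4.3.3). P-values were two-sided and adjusted by Benjamini-Hochberg, threshold 0.05; the fit was tested on simulated data. For a single value, an exact test of 3 against 3 arrays cannot go below 0.1, so none was used. The number of arrays limits the precision.

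The comparison, the 72 gene lists (2276 names, 2091 with a probe set) and the tests were chosen with earlier results of these data known. The 15 largest rises and falls were taken from genes called without any 1 array whose Ube2f and control arrays did not overlap. Named genes were these, Ube2f, called members of the lists, and NEDD8 and cullin genes. The choice among them favoured calls that held under the alternatives. Alternatives changed the constant, filter, scaling, probe set choice, arrays, covariates and variance model. Promoters came from RefSeq (GRCm38.p6), read with Python 3.11.15, and figures were drawn with matplotlib 3.10.9.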

Additional observations from a re-analysis of the deposited data

Results flagged for a closer look

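Signals also changed in probe sets that the comparison did not use. Of 2269 tested probe sets without a gene name, 26 were called by limma in the same comparison (1.15%), 4 higher and 22 lower in the Ube2f arrays. Of 566 tested probe sets assigned to several genes, 16 were called (2.83%), 10 higher and 6 lower. In that fit, which tested all probe sets together, 609 of 19684 probe sets with 1 gene were called (3.09%). The features behind the unnamed probe sets were not analysed here.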

How the results depend on the processing

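Of the 148 called genes picked by the naming rule, 34 held in every alternative that tested them; 28 had no test under the stricter filter, 15 without probe sets ending in _s, _x or _a, and 2 with probe sets averaged. Of the 148, 71 held with arrays centred on their median, 76 with probe sets averaged, 79 with the beta-actin covariate and 71 without Ube2f replicate 1. The counts of calls (all, higher, lower; 551, 237 and 314 as reported) became 222, 50 and 172 with centred arrays, 271, 110 and 161 with probe sets averaged, 249, 100 and 149 with the beta-actin covariate, and 350 and 134 (all and higher) with only the 6 arrays compared. They became 1461, 721 and 740 with replicate 3 as a batch term and 1121, 523 and 598 in replicates 1 and 2 alone. With 1 array left out they ran from 195 to 583 for all, 59 to 251 for higher and 136 to 351 for lower. The numbers were not taken as pairs: the deviations of same-numbered control and Ube2f arrays correlated by 0.01, 0.16 and 0.35, and control replicates 1 and 2 correlated best with another number. Number 3 had the highest of these, and median signals also stood apart on replicate 3 in all 3 groups. Replicate 3 correlated negatively with every other number (-0.11 to -0.32). Deviations from a group mean partly force such negative values, so they add nothing to the 0.35. With the replicate block there were 1225 calls, 585 higher and 640 lower, among them all 551. Without probe sets ending in _s, _x or _a, Ube2f gave 0.198 on its dim probe set (adjusted p = 0.881), Hars -0.0637, Pfkl 0.0535 and Mapre2 -0.198. With probe sets averaged the direction turned for Dtl (0.395), Becn1 (0.106), Txnrd1 (0.0111) and Cdc42ep1 (0.164). The cause was not tested for any of these. No detection calls are given, and 6 named genes had a control or Ube2f mean under the low-signal filter (Igtp, Islr, Socs1, Oas1a, Npr3 and Aldh1a1).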

Other observations

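Some calls in other gene groups also held without any 1 array. Among 35 immediate early factors 3 rose and 1 fell (11.4%, against 5.19% of all genes). The rises, Fos (1.10), Egr2 (1.06) and Ier2 (0.61), were all lost without control replicate 1, control replicate 2 or Ube2f replicate 1 (adjusted p by limma up to 0.165, 0.114 and 0.14), and the fall was Mafk, a small MAF partner of NRF2, at 628, 487 and 490.5 in the control arrays and 283, 314 and 292 in the Ube2f arrays (log2 fold change -0.81, adjusted p = 0.00694 by limma); its call held in every alternative that tested it. Tubg1, which nucleates microtubules, read 1506, 1498 and 1441 in the control arrays and 2523, 2763 and 2278 in the Ube2f arrays (0.76, adjusted p = 0.00166), and Tubb2b, a beta-tubulin, read 1522, 1760.1 and 1819 in the control arrays and 1097, 1140.2 and 820.3 in the Ube2f arrays (-0.74, 0.0162). They were 2 of 4 calls among 24 tubulin and microtubule genes, and neither was called with centred arrays (adjusted p = 0.0997 and 0.0589). Pcdh18, a protocadherin, read 801, 751 and 704 in the control arrays and 454, 370.5 and 464 in the Ube2f arrays (-0.79, adjusted p = 0.00693) and Cldn12, a claudin, 5375, 5089.5 and 6358 in the control arrays and 8279.6, 8828 and 7998 in the Ube2f arrays (0.58, 0.0075), the latter lost with centred arrays (0.208).

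Tvp23b, a Golgi membrane protein, read 886, 1124 and 686 in the control arrays and 2289, 1897 and 1956 in the Ube2f arrays, a rise of 1.20 (adjusted p = 0.00154) that was 1.02 (adjusted p = 0.00265) with the Ube2m hairpin. Atg12, a ubiquitin-like protein of autophagy, read 825, 953 and 694 in the control arrays and 532, 388 and 420.0 in the Ube2f arrays (-0.86, adjusted p = 0.00578), but -0.13 with its probe sets averaged (0.73). Of the 551 called genes, 114 were called in the same direction and 45 in the opposite direction with the Ube2m hairpin, counts that share their control arrays.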
